A study of Homo sapiens with 8 samples.

Results

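The OAS, IFIT and MX genes were examined in EndoC-βH5 cells, a human pancreatic beta-cell line, after exposure to a mix of inflammatory cytokines. The 10 genes OAS1, OAS2, OAS3, OASL, IFIT1, IFIT2, IFIT3, IFIT5, MX1 and MX2 were chosen by name, and all 10 were among the 16525 genes of the expression table. All of them were higher after cytokine exposure, from 1.66-fold for MX2 to 379-fold for IFIT3 in the ratio of group means. RNA was sequenced from 4 libraries of untreated control cells and 4 libraries of cells kept for 48 hours with interleukin-1β, interferon-γ and tumour necrosis factor-α together. Both groups were grown in the same medium on coated plates, and nothing in the labels says that the 4 libraries of a group came from separate cultures, so p-values measure the spread between these libraries, which may be technical. A single cell line limits what the groups stand for, since it is not a whole islet.

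Interferons bind receptors on the cell surface and activate the kinases of the JAK family and transcription factors of the STAT family. Type I and type III interferons act mainly through a complex that includes STAT2 and IRF9 and binds the interferon-stimulated response element (ISRE), whereas interferon-γ acts mainly through pairs of STAT proteins that bind the gamma-activated site (GAS). The proteins made by the genes described here act on viral RNA and viral particles. OAS1, OAS2 and OAS3 sense double-stranded RNA and make 2-5A, a short oligoadenylate that serves as a messenger; OASL is a relative that lacks this activity and enhances sensing by RIG-I. IFIT1 binds RNA whose cap lacks methylation, IFIT2 and IFIT3 form complexes with it, and IFIT5 binds RNA ends directly. MX1 and MX2 are large GTPases related to dynamins, and both block early steps of the life cycle of viruses. In beta cells, antiviral genes of this kind are of interest because an interferon signature has been described in islets of people with type 1 diabetes.

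Values are CPM, the reads on a gene scaled to a fixed total of reads in each library. That total, recovered from the values, was 46767972 to 51145634 reads, of which 20.1% to 26.6% lay outside the listed genes. The libraries held 36577438 to 40117636 reads on the listed genes, and 1 read was worth 0.0196 to 0.0214 CPM, so that the 3 reads taken as the limit for a count of 0 correspond to 0.0587 to 0.0641 CPM. Libraries are called A, B, C and D in each group, by the part of the column name that a control and a cytokine library share. Names of A and B have one ending and those of C and D another. Over all genes, the libraries of A and B resembled each other more closely than either resembled C or D. All 12 beta-cell markers were listed, and limma called 7 of them lower and none higher after cytokines, where 17.5% of all genes were called lower. The other 5, INS, IAPP, NKX6-1, PCSK1 and CHGA, had log2 fold changes from -0.17 to 0.93, and with TMM scaling 6 were called lower and 1 higher. Of 8 immune-cell markers only CD14 was listed, at 2.20 ± 0.913 CPM in control and 1.50 ± 0.341 CPM in cytokine-exposed cells (SD, n = 4 each), while the others, PTPRC, CD3E and CD68 among them, were not listed. Of the markers of other cells, 2 of 6 endothelial and stromal genes (summed level 3.56 to 5.30 CPM in control and 4.29 to 6.41 CPM in cytokine libraries) and 2 of 6 duct and acinar genes (88.2 to 167 and 84.6 to 166 CPM) were listed, the latter sum being mostly KRT19. All 4 other islet hormones were listed, with a summed level of 463 to 2177 CPM in control and 553 to 1996 CPM in cytokine libraries. Most of this was SST, at 1219 ± 868 CPM in control cells. INS was at 2169 ± 744 CPM there, but these values are not corrected for length, so the levels of SST and INS are not compared. SST was at 1761 and 2143 CPM in control libraries A and B and at 615 and 355 CPM in C and D. GCG was at 93.3 ± 94.0 CPM in control and 34.5 ± 34.7 CPM in cytokine-exposed cells. Its log2 fold change of -1.47 was not called (limma adjusted p = 0.237), but was called lower with same-letter libraries fitted as pairs (limma adjusted p = 3.89e-05).

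The genes lie in 4 places of the genome (GRCh38, GENCODE 29). OAS1 (12:112906777-112933222), OAS3 (12:112938352-112973249) and OAS2 (12:112978395-113011723) follow each other on the plus strand of chromosome 12 within 105 kb, and OASL (12:121019111-121039242) lies on the minus strand of the same chromosome. IFIT2 (10:89283694-89309276), IFIT3 (10:89327894-89340971), IFIT1 (10:89392546-89406486) and IFIT5 (10:89414586-89421001) follow each other on the plus strand of chromosome 10 within 137 kb. MX2 (21:41361943-41409390) and MX1 (21:41420304-41459214) lie side by side on the plus strand of chromosome 21 within 97.3 kb.

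Sequences around the start sites are shown because the ISRE and the GAS are the elements through which interferons are known to act. RefSeq windows (GRCh38.p14, 250 bases before to 50 bases after each start) were at hand for 6 of the 10 genes, with 9 windows, since IFIT3 has 2 starts and MX1 has 3. IFIT2, MX2, OAS2 and OASL had no entry. Each line gives 170 bases before and 25 bases after a start on the plus strand. Capitals mark matches, on either strand, to the ISRE core GAAANNGAAA, to the GAS core TTCNNNGAA and to GAAANGAAA, a form of the ISRE core with 1 base less in its middle that was added after the OAS1 sequence had been seen. Matches to the ISRE core on the other strand begin with TTTC as printed.
IFIT1, chr10:89392453-89392647, plus strand: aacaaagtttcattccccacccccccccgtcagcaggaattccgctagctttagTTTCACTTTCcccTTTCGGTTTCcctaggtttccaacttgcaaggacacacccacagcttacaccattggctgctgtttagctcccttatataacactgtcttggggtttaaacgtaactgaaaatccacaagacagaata
IFIT3 first start, chr10:89327827-89328021, plus strand: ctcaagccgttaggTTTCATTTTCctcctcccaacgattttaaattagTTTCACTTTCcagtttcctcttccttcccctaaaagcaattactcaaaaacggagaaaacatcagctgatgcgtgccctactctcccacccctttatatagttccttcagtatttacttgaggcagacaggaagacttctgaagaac
IFIT3 second start, chr10:89332359-89332553, plus strand: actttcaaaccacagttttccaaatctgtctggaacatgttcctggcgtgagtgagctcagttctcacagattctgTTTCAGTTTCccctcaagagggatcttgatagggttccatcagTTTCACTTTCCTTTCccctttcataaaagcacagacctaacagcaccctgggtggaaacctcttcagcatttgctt
IFIT5, chr10:89414398-89414592, plus strand: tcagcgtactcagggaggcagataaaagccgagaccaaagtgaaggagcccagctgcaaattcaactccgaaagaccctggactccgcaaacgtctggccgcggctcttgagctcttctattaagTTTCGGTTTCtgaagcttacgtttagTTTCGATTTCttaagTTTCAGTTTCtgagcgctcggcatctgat
OAS1, chr12:112906792-112906986, plus strand: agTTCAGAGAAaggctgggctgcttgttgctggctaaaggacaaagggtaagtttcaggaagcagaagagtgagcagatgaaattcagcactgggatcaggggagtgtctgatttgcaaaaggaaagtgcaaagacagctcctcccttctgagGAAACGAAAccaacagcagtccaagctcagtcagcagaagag
OAS3, chr12:112938304-112938498, plus strand: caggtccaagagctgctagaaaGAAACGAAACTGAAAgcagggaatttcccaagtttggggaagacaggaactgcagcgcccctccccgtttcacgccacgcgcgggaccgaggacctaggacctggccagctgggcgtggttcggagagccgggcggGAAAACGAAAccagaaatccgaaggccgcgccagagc
MX1 first start, chr21:41420388-41420582, plus strand: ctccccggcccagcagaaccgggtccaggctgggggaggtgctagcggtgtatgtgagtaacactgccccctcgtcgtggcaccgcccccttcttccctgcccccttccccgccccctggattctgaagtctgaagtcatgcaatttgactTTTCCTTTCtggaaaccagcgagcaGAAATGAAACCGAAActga

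The ISRE core was found in windows of 5 of the 6 genes with an entry, all but OAS1, and in 7 of their 9 windows. Of all 35116 windows of the same length, 3.57% held it. In IFIT1 it began 116 and 103 bases before the start, and in IFIT5 it began 45, 19 and 4 bases before the start, the last match running across it. Both starts of IFIT3 had 2 matches, and OAS3 had matches beginning 143 and 12 bases before its start. MX1 had the core 12 bases into the transcript at its first start and 196 bases before the last of its starts. OAS1 had the shorter form GAAACGAAA beginning 17 bases before its start and a GAS core 168 bases before it. The shorter form, chosen because OAS1 holds it, was present in 5 of the 9 windows against 3.12% of all windows, overlapping an ISRE core in IFIT3, MX1 and OAS3. The GAS core was found in 2 of the 9 windows, those of OAS1 and of the third start of MX1, against 7.66% of all windows. A match of letters is not a measured binding site.

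To ask which of these genes responded to the cytokines, each was compared between the groups on the scale log2(CPM + 0.1) with limma, fitted over all 16525 genes, and a gene was called where that change exceeded 0.5 in size and its adjusted p, by Benjamini-Hochberg over all genes, was below 0.05. All 10 were called higher. In bulk RNA, a change in the number of responding cells and a change in RNA per cell cannot be told apart. Of all genes tested, 27.0% were called in either direction and 9.52% were called higher. In all 10, every cytokine library lay above every control library, as it did for 10.8% of all genes. The two-sided exact permutation test of 4 against 4 libraries gave p = 0.0286 for each, the smallest value that a test of 4 against 4 unpaired libraries can give. Same-letter libraries count as pairs, which this test ignores, so its p is not that of a paired design. The table holds only genes above 0.5 CPM in at least 4 samples. 6 of the 10 genes were above 0.5 CPM in all 4 control libraries, whereas OAS2, OASL, IFIT2 and IFIT3 needed cytokine libraries to be listed, which by itself favours a rise. Counts and medians over the 10 therefore describe them and are not evidence of their own.

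**Figure D1:**
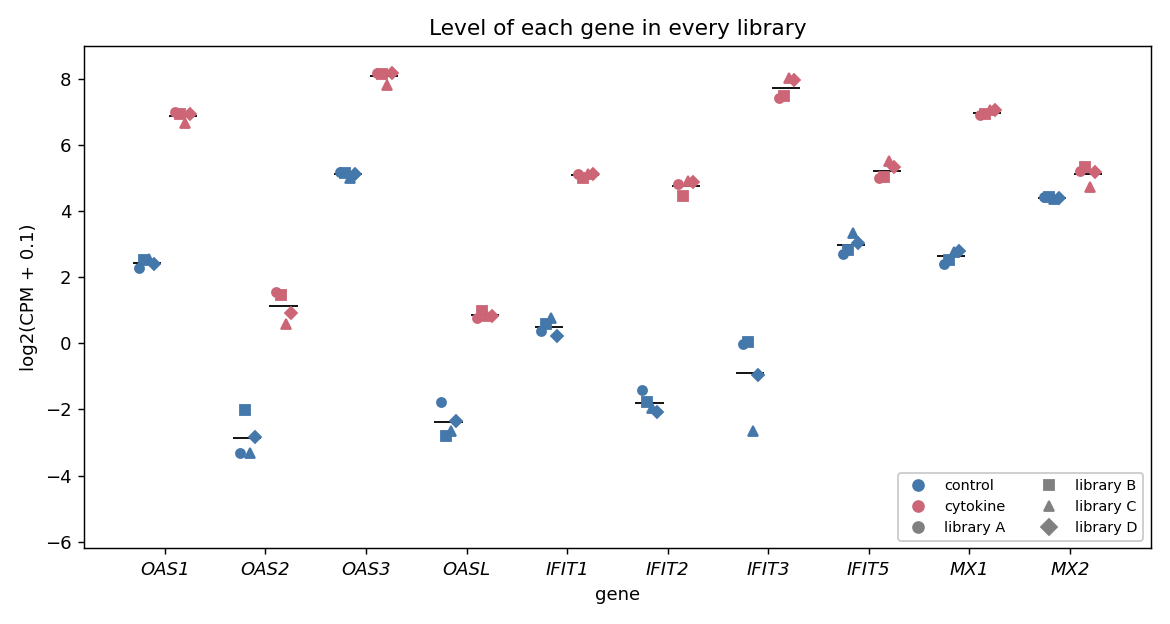
Level of the 10 genes as log2(CPM + 0.1) on the vertical axis, with one point for each library (blue, control; red, cytokine; marker shapes for libraries A to D) and a black line at the mean of each group. All 4 red points lie above all 4 blue points for every gene, with the smallest gap for MX2 and the widest spread among blue points for IFIT3, from 0.0597 to 0.931 CPM.

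Among the sensors of double-stranded RNA, OAS3, which makes 2-5A when it meets long double-stranded RNA, had the highest level per length of merged exons of the 10 genes in control cells. Its level was 36.5, 35.4, 32.1 and 34.5 CPM in control libraries A to D and 291, 283, 227 and 289 CPM in the cytokine libraries. Controls lay within a narrow band, and cytokine library C was the low one. OAS3 rose by 2.97 on the log2 scale (SE 0.12, limma adjusted p = 2.41e-08).

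OAS1, the smallest 2-5A synthetase, was at 4.77, 5.63, 5.71 and 5.14 CPM in control libraries A to D. After cytokines it reached 127, 123, 102 and 124 CPM. The groups were far apart, and cytokine library C was again the lowest. The log2 fold change of OAS1 was 4.46 (SE 0.12, limma adjusted p = 1.41e-09), beside 2.97 for its neighbour OAS3. OAS1 went from 6.87% to 13.7% of the summed CPM of the 10 genes while OAS3 went from 44.8% to 31.3%.

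OAS2, the remaining gene of the same cluster, was close to absent in control cells. It had 0, 7, 0 and 2 reads in control libraries A to D (0, 0.148, 0 and 0.0391 CPM), where a count of 0 allows up to 0.0641 CPM in A and 0.0597 CPM in C. With cytokines it reached 2.85, 2.65, 1.41 and 1.81 CPM, or 70 to 134 reads. Libraries A and B were higher than C and D, and all were above the controls. The fitted log2 fold change was 4.01 (SE 0.37, limma adjusted p = 2.00e-05), but this value depends on the 0.1 CPM added before taking logs, and edgeR on the reads gave 5.63. The ratio of pooled reads, 418 against 9, was 47.0 with a 95% exact counting interval of 24.5 to 103, which covers counting error only. Of the 9 control reads, 7 came from library B, and without it the ratio was 160 (44.1 to 1327), so 1 library sets this value.

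OASL, which lies apart from the other OAS genes, was also near the limit of detection in control cells, with 9, 2, 3 and 5 reads (0.192, 0.0423, 0.0597 and 0.0978 CPM) in libraries A to D. In the cytokine libraries it was at 1.62, 1.88, 1.69 and 1.67 CPM, a tight group. OASL rose by 3.25 on the log2 scale (SE 0.29, limma adjusted p = 1.56e-05), and 4.24 by edgeR. Its pooled reads rose from 19 to 331, a ratio of 17.6 with a counting interval of 11.1 to 29.6.

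The IFIT genes, which encode proteins built from tetratricopeptide repeats that bind viral RNA or each other, included the 2 largest log2 fold changes of the 10. IFIT3, which stabilises IFIT1 on RNA, was at 0.877, 0.931, 0.0597 and 0.411 CPM in control libraries A to D, or 41, 44, 3 and 21 reads. It reached 173, 179, 263 and 248 CPM with cytokines. Libraries A and B, the highest of the controls, were the lowest of the cytokine libraries. IFIT3 rose by 8.63 on the log2 scale (SE 0.50, limma adjusted p = 4.49e-07), the rise ranked 7 among all 16525 genes, and IFIT3 went from 0.735% to 24.7% of the summed CPM of the 10 genes. From pooled reads the ratio was 389, with a counting interval of 322 to 474. With 1 library left out it ran from 297 (without control C) to 494 (without control B).

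IFIT2 followed with 0.278, 0.190, 0.159 and 0.137 CPM in control libraries A to D, from 7 to 13 reads. It was at 28.2, 21.8, 29.9 and 29.3 CPM in the cytokine libraries, of which B was the lowest. The log2 fold change was 6.57 (SE 0.21, limma adjusted p = 5.26e-09), and the rise ranked 32. From pooled reads the ratio was 145, with a counting interval of 105 to 206. In GENCODE 29, IFIT2 shares 356 exon bases, 8.68% of its exon length, with AL353751.1 on the same strand, so that reads there could be left uncounted or be given to either gene.

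IFIT1, which binds viral RNA with an unmethylated cap, was at 1.20, 1.40, 1.61 and 1.08 CPM in control libraries A to D and at 34.6, 32.3, 34.5 and 35.0 CPM in the cytokine libraries. Its cytokine libraries spread least of the 10 genes, with a coefficient of variation of 3.56%. The log2 fold change was 4.60 (SE 0.16, limma adjusted p = 9.43e-09), beside 8.63 for IFIT3 and 2.25 for IFIT5 on either side.

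IFIT5, which binds RNA on its own, had the highest control level per length of merged exons of the IFIT family, with 6.48, 6.94, 9.99 and 8.07 CPM in libraries A to D. With cytokines it was at 32.2, 32.7, 45.3 and 40.0 CPM. In both groups libraries C and D were above A and B, so that the difference within each pair was nearly constant, from 2.17 to 2.30 on the log2 scale. The log2 fold change was 2.25 (SE 0.17, limma adjusted p = 4.51e-06), the lowest of the IFIT genes.

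MX1, a GTPase known for blocking influenza viruses, was at 5.20, 5.67, 6.75 and 6.88 CPM in control libraries A to D. It was at 119, 122, 132 and 133 CPM after cytokines. As for IFIT5, C and D were above A and B in both groups. MX1 rose by 4.35 on the log2 scale (SE 0.13, limma adjusted p = 2.28e-09).

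MX2, which lies next to MX1 and is known for acting on retroviruses and herpesviruses at the nuclear pore, rose least. Its control level was 21.6, 21.6, 20.6 and 20.9 CPM, the narrowest spread of any of the 10 genes in control cells, with a coefficient of variation of 2.40%. After cytokines it was at 37.1, 40.6, 26.4 and 36.5 CPM, with C well below the other libraries. There was no overlap between the groups, but MX2 rose by 0.71 on the log2 scale (SE 0.14, limma adjusted p = 0.00366), the smallest change of the 10, which ranked 1410 among all genes. By pair the difference was 0.78 in A, 0.91 in B, 0.36 in C and 0.80 in D. Within libraries C and D alone the log2 fold change was 0.58 (limma adjusted p = 0.0718), and the call was lost.

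**Figure D2:**
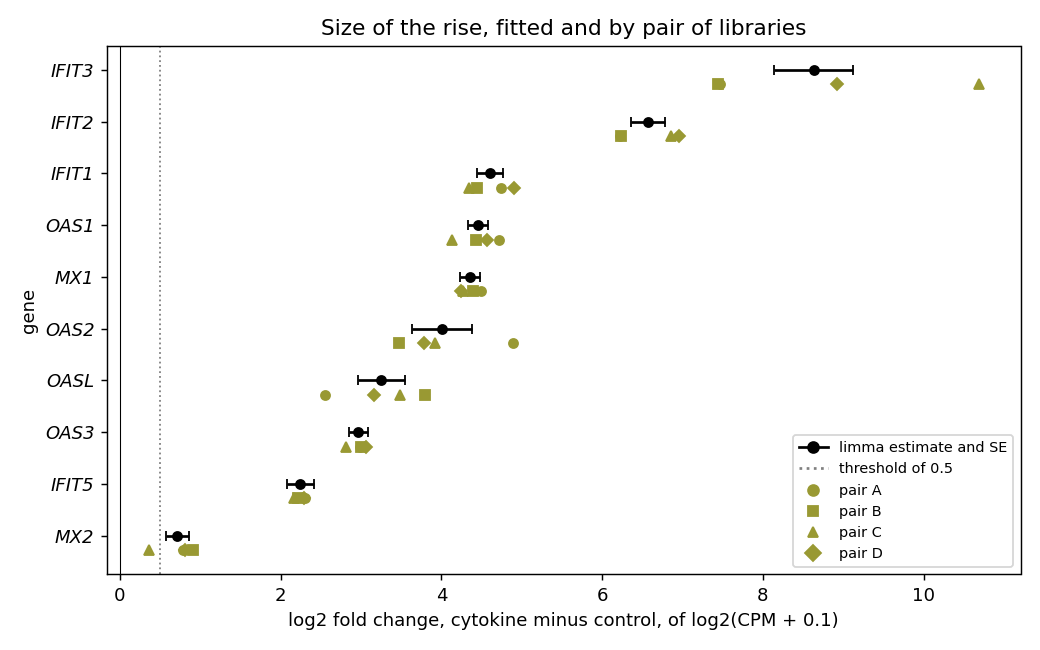
Log2 fold change of each gene on log2(CPM + 0.1), horizontal axis, with genes ordered by size. Black points and bars are the limma estimate and its standard error (n = 4 per group), coloured markers are the differences within pairs A to D, and the dotted line is the threshold of 0.5. Estimates run from 0.71 for MX2 to 8.63 for IFIT3, and the pairs of IFIT3 spread from 7.44 to 10.69.

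Summed over the 10 genes, the level was 77.3 ± 0.433 CPM in control cells and 872 ± 45.3 CPM in cytokine-exposed cells (SD, n = 4 each), a ratio of 11.3. The sum of the 4 IFIT genes rose most, from 9.95 ± 1.30 to 315 ± 56.3 CPM or 31.6-fold. The OAS genes went from 40.1 ± 1.64 to 396 ± 42.6 CPM (9.87-fold) and the MX genes from 27.3 ± 0.400 to 162 ± 5.52 CPM (5.92-fold). MX2 made up 27.4% of the sum in control cells and 4.04% after cytokines.

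Levels of different genes can be compared only per length, and were divided by the length of each gene's merged exons in GENCODE 29. In CPM per kilobase, OAS3 was the highest in control cells at 4.20 ± 0.225, followed by IFIT5 at 1.96 ± 0.390 and MX2 at 1.62 ± 0.0389, whose ranges overlapped, then OAS1 at 1.07 and MX1 at 0.711. IFIT1 at 0.286, IFIT3 at 0.216, IFIT2 at 0.0466, OASL at 0.0279 and OAS2 at 0.00747 formed a run in which each gene overlapped the next. After cytokines IFIT3 led at 81.7 ± 17.7, followed by OAS3 at 33.0 ± 3.71, OAS1 at 24.1 ± 2.34, MX1 at 14.7 ± 0.819 and IFIT5 at 9.36 ± 1.56. IFIT1 at 7.39 and IFIT2 at 6.66 overlapped, and MX2 at 2.69, OASL at 0.487 and OAS2 at 0.348 came last. The order depended on the length used, since GENCODE 29 lists 18 transcripts for MX1, 13 for MX2 and 11 for OAS1. With the longest transcript in place of merged exons, MX2 at 5.21 overlapped OAS3 at 5.15 at the top in control cells, and OAS1 at 49.3 overlapped OAS3 at 40.6 behind IFIT3 after cytokines.

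**Figure D3:**
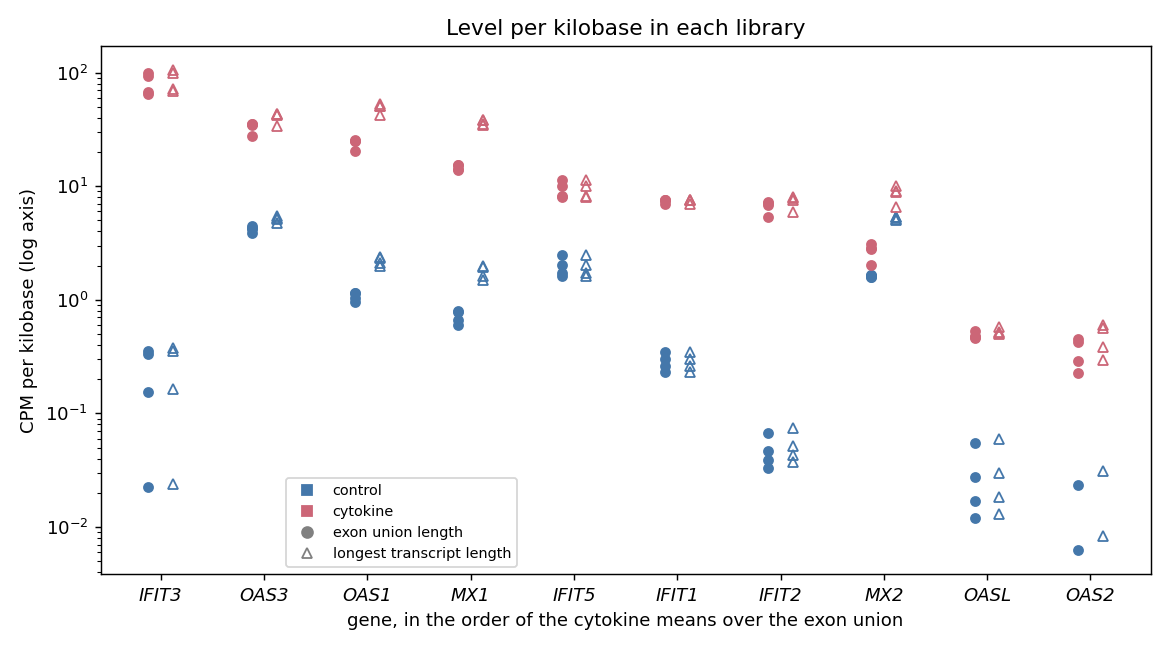
CPM per kilobase on a log axis, one marker for each library (blue, control; red, cytokine), with filled circles for merged exon length and open triangles for the longest transcript. Genes are in the order of the cytokine means over merged exons, and the 2 control libraries of OAS2 with 0 reads cannot be drawn on this axis. IFIT3 moved from 0.216 to 81.7, past 6 genes that were above it in control cells.

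To see whether the size of the response was alike in all libraries, the cytokine effect in C and D was compared with that in A and B by an interaction term. In limma without a block, none of the 10 genes passed an adjusted p of 0.05, as against 0.0303% of all genes, and 1 of them, IFIT3, had an unadjusted p under 0.05. edgeR on the reads gave 0 at the adjusted and 2 at the unadjusted level. The IFIT3 rise was 7.45 on the log2 scale in A and B and 9.81 in C and D, a difference of 2.36 (SE 0.54, limma adjusted p = 0.864). With the pairs as a block the difference had SE 0.31 and limma adjusted p = 1.54e-05, in a fit that called 0.424% of all genes. By edgeR without the block the adjusted p was 0.484. Within the controls alone, IFIT3 was lower in C and D than in A and B by 1.81 (SE 0.39, limma adjusted p = 0.00977), and it was the only one of the 10 genes that passed this test, against 21.8% of all genes. Control library C, with 3 reads of IFIT3, was the lowest, and without it the difference was -0.97 on the log2 scale (limma adjusted p = 0.0129). The call was lost without control A (limma adjusted p = 0.105) or control B (limma adjusted p = 0.0557). The difference in response was 1.52 without control C and 3.19 without control D (limma adjusted p = 0.0528 and 8.55e-05).

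Deviations from the group means were not shared by all of the genes. Over the 8 libraries, OAS3 and MX2 deviated together (Pearson r = 0.90), as did IFIT5 and MX1 (r = 0.84), whereas OAS3 and IFIT5 deviated in opposite directions (r = -0.78). These pairs were picked as the highest and the lowest r among all pairs of the 10 genes, so they do not define subgroups. Among the cytokine libraries, OAS3 and MX2 were both lowest in library C. Outside the 10 genes and at a mean of at least 1 CPM, the genes whose deviations were most like the mean deviation of the 10 were ABCC8 (r = 0.97), CTSS (r = 0.97), MIR429 (r = 0.97), GTF2IRD1 (r = 0.95) and OVGP1 (r = 0.95). That mean is weighted towards IFIT3, whose control libraries deviate most, so these genes cannot be read as like the family. Against IFIT3 alone their r ran from 0.75 to 0.95, and against the mean of the other 9 genes, computed after the values had been seen, from 0.28 to 0.70. These are descriptions over 8 libraries that share their pairs and name endings; CTSS was called higher after cytokines, ABCC8 was called lower and the other three were not called.

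The other genes of the pathway were taken from lists by role. Of 13 interferon receptors and signalling genes, 6 were called higher and none lower, with a median log2 fold change of 0.45, as against -0.17 for all genes. Over all genes, 9.52% were called higher and 17.5% lower. STAT2, which acts mainly in the response to type I and type III interferons, rose from 88.4 ± 19.1 to 375 ± 113 CPM (log2 fold change 2.05, SE 0.25), and IRF9, its DNA-binding partner, from 2.05 ± 0.993 to 33.8 ± 12.5 CPM (4.03, SE 0.38). IRF1, a factor known as an early target of interferon-γ, rose from 11.3 ± 1.05 to 755 ± 157 CPM (6.03, SE 0.15). TYK2, a kinase of the type I interferon receptor, was at 116 ± 12.5 and 86.0 ± 6.46 CPM and was not called. None of the 10 interferon ligands on the list were among the listed genes, and they were not analysed here.

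Of 7 genes that restrain interferon signalling, 4 were called higher and none lower (median 0.76), where 9.52% and 17.5% of all genes were. SOCS1, an inhibitor of JAK kinases, rose from 1.17 ± 0.352 to 61.7 ± 11.5 CPM (log2 fold change 5.62, SE 0.21). The phosphatases PTPN11 (94.8 ± 30.1 and 72.0 ± 13.2 CPM) and PTPN6 (36.3 ± 3.63 and 29.4 ± 2.13 CPM) and the STAT inhibitor PIAS1 (65.2 ± 8.67 and 74.5 ± 14.6 CPM) were not called.

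Around the OAS enzymes, ABCE1, a ribosome recycling factor that is also known to restrain the 2-5A system, rose from 23.5 ± 5.46 to 34.3 ± 5.03 CPM (log2 fold change 0.56, SE 0.18, limma adjusted p = 0.0354). Only 3 of the 8 fits that left out 1 library kept this call. It was kept with TMM scaling (0.71, limma adjusted p = 0.00366) and with the pairs as a block (limma adjusted p = 3.56e-05). PDE12, which degrades 2-5A, was at 20.7 ± 4.14 and 21.2 ± 3.43 CPM and was not called.

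None of 6 genes of mRNA cap formation and methylation, the modification by which IFIT1 tells cellular from viral RNA, were called. As 27.0% of all genes were called in either direction, none of 6 is not read as a result about these genes. CMTR1, which methylates the first nucleotide after the cap, came closest, with 58.1 ± 9.68 and 80.4 ± 8.38 CPM and a log2 fold change of 0.48 (SE 0.14, limma adjusted p = 0.0260), and was called at 0.63 with TMM scaling. PCIF1, CMTR2, RNMT, RNGTT and RAMAC had log2 fold changes from -0.21 to 0.22. Of 5 dynamin relatives of MX1 and MX2, only DNM1, a dynamin best known from neurons, was called, and fell from 362 ± 29.7 to 199 ± 13.8 CPM (log2 fold change -0.86, SE 0.12). DNM2, DNM3, DNM1L and OPA1 were not called. With 17.5% of all genes called lower, 1 of 5 is not read as a result about the dynamins either.

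Other antiviral effectors moved in the same direction as the 10 genes. Of 28 on the list, 24 were among the listed genes, and all 24 were called higher, with a median of 3.47 beside 4.18 for the OAS, IFIT and MX genes and 9.52% of all genes called higher. IFITM2, TRIM5, IFI44 and IFI44L were not listed. Of the 24, 7 needed cytokine libraries to pass the filter on low values, so the count and the median are favoured by it. The list was also chosen with earlier results of these data known, so its count and median are not evidence of their own. The 17 that were above 0.5 CPM in all 4 control libraries had a median of 2.58. Those with the highest CPM averaged over both groups, not corrected for length, were ADAR, an RNA editor (179 ± 7.34 to 423 ± 12.9 CPM), BST2, which tethers virus particles to the cell (0.657 ± 0.724 to 365 ± 154 CPM), IFI6 (28.9 ± 12.4 to 251 ± 99.2 CPM) and SAMHD1, which depletes nucleotides (35.7 ± 3.22 to 214 ± 10.1 CPM). Over the 58 listed genes of all related lists, chosen in the same way, 35 were called higher and 2 lower, where 9.52% and 17.5% of all genes were.

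**Figure D4:**
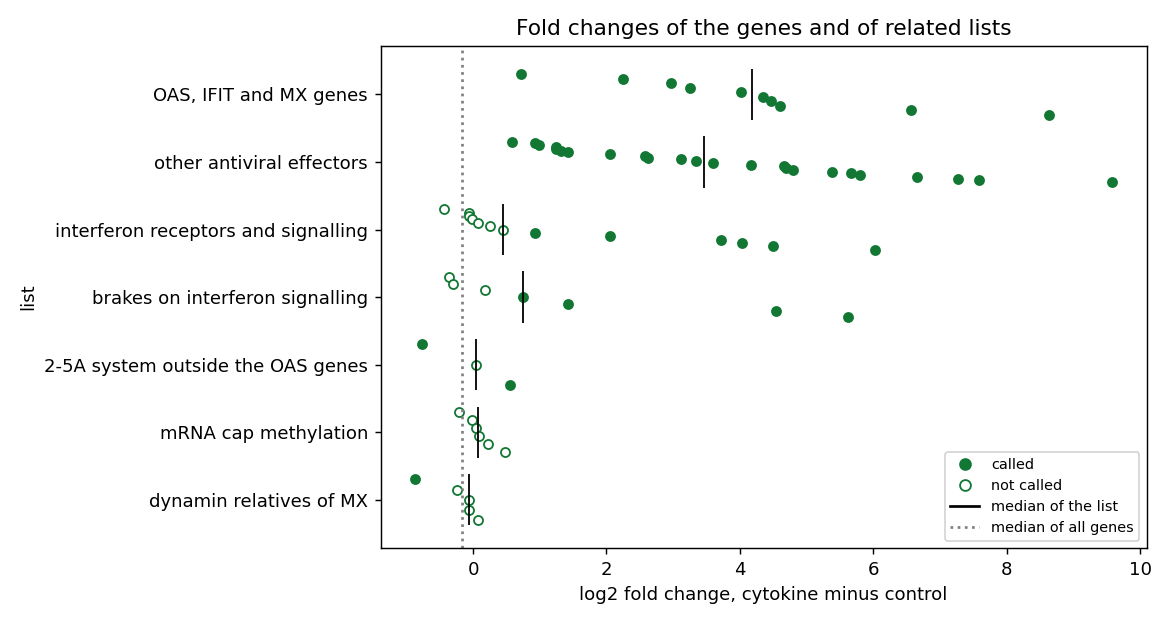
Log2 fold changes, horizontal axis, of the 10 genes and of 6 related lists. Filled points were called, open points were not, black bars are list medians and the dotted line is the median of all genes (-0.17). All points of the top 2 rows are filled and right of 0. The 6 cap methylation genes are open and lie between -0.21 and 0.48, where 27.0% of all genes were called.

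For the 3 clusters of more than 1 gene, the nearest listed coding genes on either side were compared in the same way. Next to OAS1, RPH3A, a synaptic vesicle protein gene 7.90 kb away, fell from 1.22 ± 0.283 to 0.322 ± 0.166 CPM (log2 fold change -1.71, SE 0.34), and on the other side of the cluster DTX1 fell by 1.15 (SE 0.16). LIPA, a lysosomal lipase gene that overlaps the IFIT genes on the opposite strand, was at 32.4 ± 6.33 and 34.3 ± 2.30 CPM and was not called, and SLC16A12, 9.30 kb beyond IFIT5, fell by 0.71 (SE 0.22). On the other side of this cluster, FAS, the death receptor gene 268 kb before IFIT2, rose from 0.749 ± 0.121 to 19.2 ± 0.708 CPM (4.52, SE 0.17). FAM3B, 4.51 kb from MX2, had a log2 fold change of 0.52 (SE 0.23, limma adjusted p = 0.109) and was called with TMM scaling (0.67, limma adjusted p = 0.0242), and RIPK4 on the far side of MX1 was at 0.25 (SE 0.15). Of the 18 neighbours taken, 3 on each side of each of the 3 clusters, 3 were called higher and 7 lower, where 9.52% and 17.5% of all genes were. With TMM scaling 5 were called higher and 7 lower, and with median-of-ratios scaling 5 and 6.

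**Figure D5:**
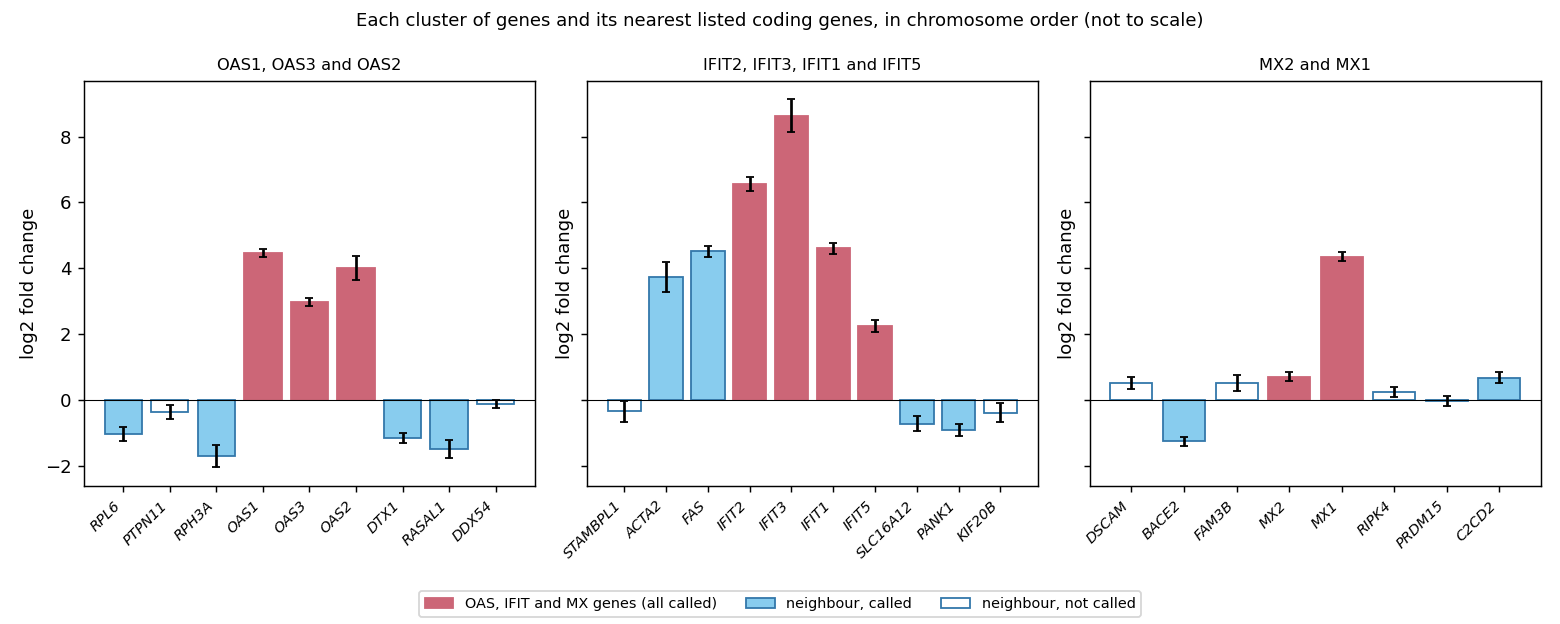
Log2 fold change (bars, with the standard error) of the genes of 3 clusters and of the 3 nearest listed coding genes on either side, in chromosome order and not to scale. Red bars are the OAS, IFIT and MX genes, filled blue bars are neighbours that were called and open bars neighbours that were not. In the left panel OAS1, OAS3 and OAS2 rise between RPH3A (-1.71) and DTX1 (-1.15), while in the middle panel FAS (4.52) lies within the range of the IFIT genes (2.25 to 8.63).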

How the data were processed

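The deposited values are CPM per gene and library. Per the study's methods, the authors sequenced paired reads of 100 bases, aligned them with TopHat2 2.1.1 to GRCh38, counted them on Ensembl 107 genes with HTSeq 0.9.1 at default settings and set a minimum of 0.5 CPM in no fewer than 4 samples. The strand orientation of the kit is not given in the sources used here, so exon overlaps with genes on the opposite strand (92 bases in OAS1, 65 in IFIT2 and 236 in MX1) could not be resolved. Every CPM value was a whole multiple of 1 read (100% of values, within 0.001 read), so whole reads were recovered; 4 other columns of values in the table were not used.

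The main test was limma 3.58.1 (R 4.3.3) with an intensity trend on log2(CPM + 0.1), which understates changes of low genes. All 8 libraries entered, with no block, and p-values were adjusted over 16525 genes. Alternatives were TMM and median-of-ratios scaling, pseudocounts of 0.5 and 1, a filter at a mean of 1 CPM, no trend, edgeR 4.0.16 (quasi-likelihood) and DESeq2 1.42.0 on recovered reads, a replicate block and leaving out each library. The count tests called 4067 (edgeR) and 4503 (DESeq2) genes, beside 4470 by limma. Deviations of same-letter control and cytokine libraries correlated at 0.57, 0.59, 0.80 and 0.74, so same-letter libraries count as pairs. The main fit has no block, following the methods; the blocked fit called 5852 genes, and its values are given where a call changes. A and B could not be told apart by this check, with 0.57 and 0.59 across them. The letters come from the column names.

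The genes and lists were chosen with earlier results of these data known. From related lists, the ligand, 2-5A, cap and dynamin genes, the 4 highest by mean CPM of the other lists, STAT2 and IRF9 were named; other names are the nearest listed coding genes and the 5 most alike genes. Some genes that this rule takes are not reported here. FAM3B's TMM value and the neighbour count were added after the values had been seen. Scripts were tested on simulated data. Tables were written with scipy 1.17.1, numpy 2.4.6 and pandas 2.3.3 under Python 3.11.15, and figures with matplotlib 3.10.9.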

Additional observations from a re-analysis of the deposited data

Results flagged for a closer look

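In 3 of the 20 sets of 4 libraries, a single library stood apart from the others of its group by Dixon's test, which chance does in about 1 in 20 groups. Cytokine library C was low for OAS1, at 102 CPM against 123 to 127 CPM, and for OAS3, at 227 CPM against 283 to 291 CPM. Cytokine library B was low for IFIT1, at 32.3 CPM against 34.5 to 35.0 CPM. The IFIT3 response was larger in C and D than in A and B by 2.36 on the log2 scale, by the interaction fit with the pairs as a block. Without the block the adjusted p was 0.864 by limma and 0.484 by edgeR. Within controls alone IFIT3 was at -1.81 in C and D relative to A and B, with 3 reads in control C.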

How the results depend on the processing

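All 10 genes stayed called higher in every alternative fitted to all 8 or to 7 libraries, except that OASL fell below the filter at a mean of 1 CPM and was not tested there. The one call lost within a set of libraries was MX2 in C and D, at 0.58. Low genes moved most with the pseudocount: with 1 in place of 0.1 the log2 fold change was 1.58 for OAS2, 1.31 for OASL and 4.56 for IFIT2. Without 1 library, the number of the 10 genes whose response differed between name endings ran from 0 to 1, the 1 being IFIT3 without control D (3.19), and with the replicate block it was 1. The number that differed within controls ran from 0 to 2, with 0 without control A or control B, and 2 (IFIT3 and IFIT5) without control D. With pseudocounts of 0.5 and 1 the IFIT3 difference within controls was -0.98 and -0.64, and that in response 1.52 and 1.18. The replicate block changed no other call of the 10. TMM and median-of-ratios scaling moved the median of all genes from -0.17 to -0.02 and -0.01 and the split of calls from 1574 higher and 2896 lower to 2154 and 1933 and to 2200 and 1883. Depth limits OAS2 and OASL, with at most 9 reads in a control library, so their folds are known only within wide intervals. The 2 largest folds also rest on few control reads, 7 to 13 per library for IFIT2 and 3 to 44 for IFIT3.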
